A study of Mus musculus with 12 samples.

Results

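The genes described here encode 5 receptors at the surface of the melanocyte, namely Mc1r, Kit, Ednrb, Met and Erbb3. They were followed in B16 cells, an established mouse melanoma line that makes melanin in culture, by taking all probes annotated to these symbols on Illumina mouse bead arrays. These are 5 of 19057 genes named on the array, with 9 of the table's 45281 probes, 1 each for Mc1r, Met and Erbb3 and 3 each for Kit and Ednrb. The series held 12 arrays, 1 of set 1 and 1 of set 2 on each of days 0, 4, 8, 12, 16 and 20, where the sets were described as successive cycles of a pigmentation oscillator. All cells were untreated B16 cells in DMEM with fetal calf serum, and no gene was altered. Arrays of days 4, 8 and 12 were labelled pigmented, and arrays of days 0, 16 and 20 depigmented. Cells of days 4, 8 and 12 had been plated at 100 cells per cm2, and those of days 16 and 20 came from a replating on day 12 at 10000 cells per cm2, so the pigment label and the scheme of plating and time cannot be told apart. A density label on each array did not follow that scheme. It gave 100 on days 4 and 16 and 10000 on days 8 and 20, and differed between the sets on days 0 and 12. The labels do not state whether set 1 and set 2 of a day were grown as separate cultures, so the p-values below reflect only how much these 12 arrays varied, possibly for technical reasons.

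Melanocytes read their surroundings through these receptors. Mc1r is a G protein-coupled receptor that binds melanocortin peptides and raises cyclic AMP, which favours the making of dark melanin. Kit, Met and Erbb3 belong to the receptor tyrosine kinase families of stem cell factor, hepatocyte growth factor and the neuregulins, and signal to the RAS and PI3K pathways, with Erbb3 depending on a partner receptor because its own kinase is weak. Ednrb is the endothelin B receptor, which couples to Gq. Kit and Ednrb are needed for melanoblasts to survive and migrate in the mouse embryo, and their loss leaves white coat areas.

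Detection split the 5 genes into a measured and an unmeasured group. A probe was called detected on an array at a detection p-value under 0.05 against the negative controls, and a probe was tested if it was detected on at least 2 of the 12 arrays, which 22978 probes were. The Mc1r probe was detected on 12 arrays, 1 of the 3 Kit probes on 11 and the Met probe on 10, and these 3 probes of 9 were tested. All 3 Ednrb probes, the Erbb3 probe and the other 2 Kit probes were detected on 0 of 12 arrays.

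**Figure D1:**
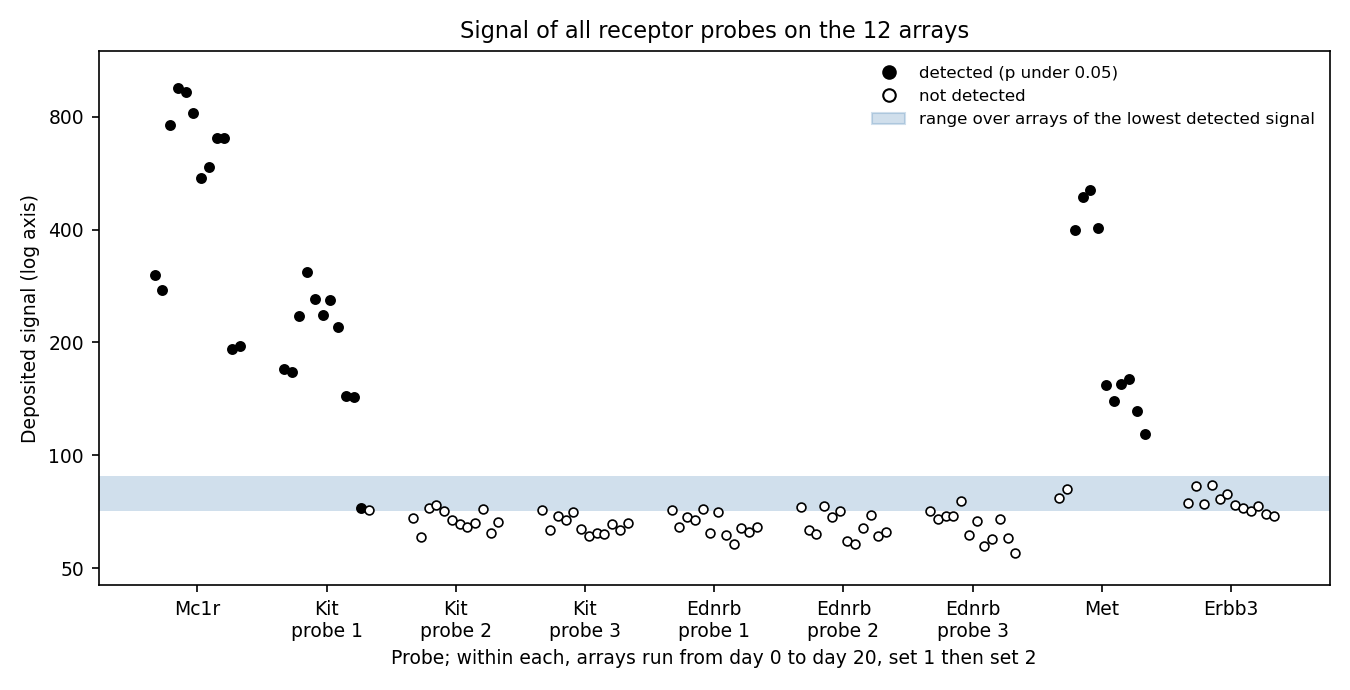
Deposited signal (log axis) of the 9 receptor probes, with 12 points per probe running from day 0 to day 20, filled where detected, and a band for the lowest detected signal over arrays (71.1 to 87.9). Probes of Mc1r, Kit and Met stand above the band on most arrays, and the 3 Ednrb probes, the Erbb3 probe and 2 Kit probes lie within or under it on all 12 arrays.

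The signal of the Ednrb probes had medians of 64.3, 63.6 and 67.2 over the arrays, with a lowest value of 54.9 and a highest of 75.3 over all 3. For the Erbb3 probe the lowest signal was 69.0, the median 74.1 and the highest 83.4. Its detection p-value was smallest at 0.0502, on an array of day 0, just outside the threshold, and its largest was 0.255. The smallest detection p-value of the Ednrb probes was 0.0972. These values bound what the probes can show: the transcripts were not detectable on these arrays, and a transcript form without the probe's sequence would give the same reading. The undetected Kit probes were annotated to cDNA clones and not to the RefSeq transcript, and their signals lay between 60.7 and 73.9. When all 45281 probes were fitted without a filter, 0 of these 6 undetected probes were called over the 6 days by limma, and 0 had an unadjusted p under 0.05.

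The tested receptors all changed over the cycle, but each in its own order of days. By limma's moderated F test over the 6 days, 3 of 3 tested probes were called at an adjusted p under 0.05, against a background of 81.3% of all tested probes, so the count alone says little about receptors. The range of the 6 day means was 1.95 on the log2 scale for Mc1r, 2.87 for Kit and 3.72 for Met, as normalized here. For Kit and Met the low end of the range lay at the detection limit, on day 20 and day 0, so its size depends on the background correction. Day 20 minus day 4 for Kit ran from -1.51 to -3.91 over the alternatives, and day 8 minus day 0 for Met from 2.19 to 4.88. In bulk RNA, fewer cells that express a receptor and less receptor RNA per cell cannot be told apart.

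**Figure D2:**
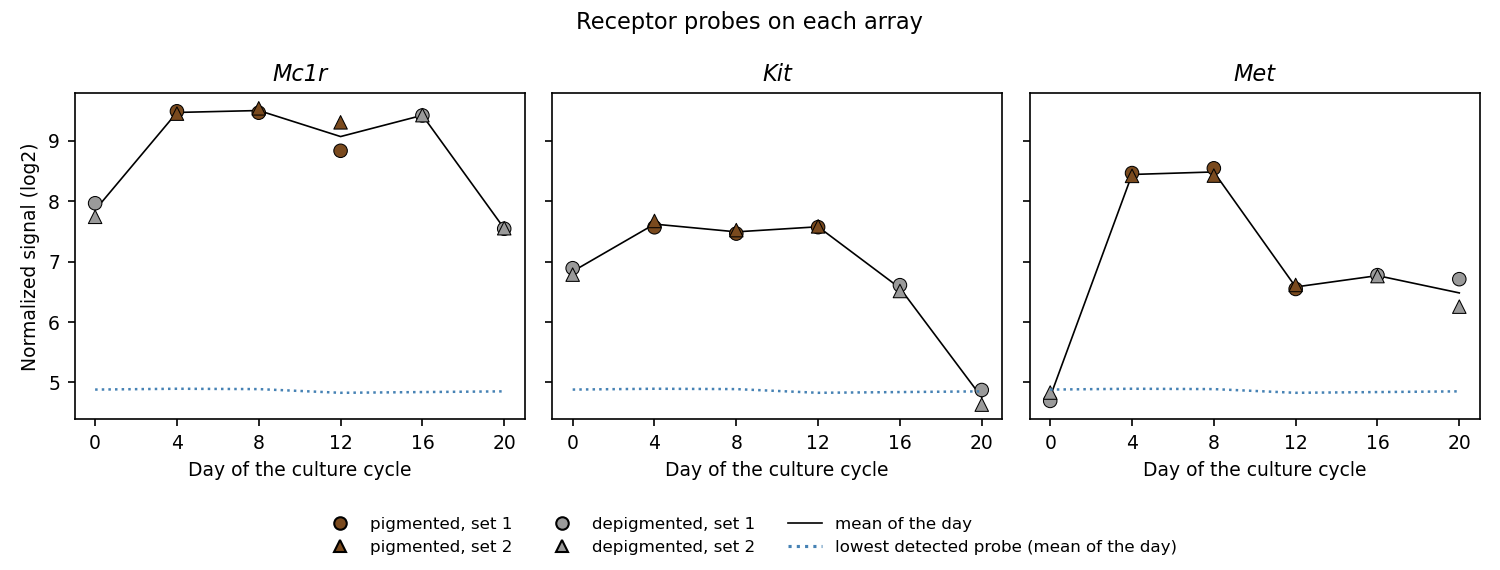
Normalized signal (log2) of the tested probes of Mc1r, Kit and Met on each array, by day, with the day mean as a line and the lowest detected probe as a dotted line. Mc1r was near 9.5 on days 4 and 8 and 7.55 on day 20, Kit fell to the detection limit on day 20, and Met rose from it on day 0 to a mean of 8.48 on day 8.

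Mc1r, the melanocortin receptor, was high from day 4 to day 16 and low at the ends of the cycle. Its deposited signal was 302 and 276 on day 0, 763 and 956 on day 4, 933 and 817 on day 8, 549.9 and 587 on day 12, 700.4 and 700.7 on day 16, and 193 and 196 on day 20, each pair giving set 1 and then set 2. Every array of days 4 to 16 was thus above every array of days 0 and 20. After normalization its 6 day means, in time order, were 7.85 ± 0.16 (SD, n = 2, as for all day means below), 9.47 ± 0.027, 9.50 ± 0.052, 9.07 ± 0.33, 9.42 ± 0.0035 and 7.55 ± 0.0063. Day 12 had the widest spread of the 6, with set 1 at 8.83 and set 2 at 9.30.

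Against day 0, Mc1r rose by 1.61 ± 0.12 (standard error) on day 4, with an adjusted p of 9.87e-11 by limma, and by 1.65 ± 0.12 on day 8 (adjusted p = 7.01e-11), both about 3.1-fold. It was still higher by 1.22 ± 0.12 on day 12 (adjusted p = 2.12e-08) and by 1.57 ± 0.12 on day 16 (adjusted p = 6.51e-10), although day 16 was labelled depigmented. On day 20 it lay below day 0 by a small margin (-0.30 ± 0.12, adjusted p = 0.0271). That last call was lost without day 0 set 1 (-0.19, adjusted p = 0.26), without day 20 set 1 (adjusted p = 0.0861) or set 2 (adjusted p = 0.077), with the density label as a term (-0.24, adjusted p = 0.112) and without the intensity trend (adjusted p = 0.0797).

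The order of the Mc1r day levels ran from day 8 through days 4, 16, 12 and 0 down to day 20. Days 8 and 4 (0.032 ± 0.12) and days 16 and 4 (-0.047 ± 0.12) did not differ beyond their spread, with 95% intervals of -0.21 to 0.28 and -0.29 to 0.20. Between days 8 and 4, 0% of tested probes were called by limma and 631 had an unadjusted p under 0.05. Day 12 lay below day 8 (-0.43 ± 0.12, adjusted p = 0.00425), a step at which 23.4% of tested probes fell, and day 16 above day 12 (0.35 ± 0.12, adjusted p = 0.0233), a step at which 33.8% changed, so the level dipped before replating and came back after it. This dip rested on the low set 1 array of day 12: without it, day 12 differed from day 8 by -0.20 (adjusted p = 0.174) and day 16 from day 12 by 0.12 (adjusted p = 0.501). The day 16 call was also lost without either array of day 16 (adjusted p = 0.091 and 0.0953), with the authors' deposited value table (adjusted p = 0.0579), without the intensity trend (adjusted p = 0.082) and with the density label as a term (adjusted p = 0.101). The steepest fall came between days 16 and 20, both labelled depigmented, at -1.87 ± 0.12 (adjusted p = 6.88e-12), or 3.66-fold, where 30% of tested probes fell.

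As a description, the promoters of the receptors were read on both strands for 3 motifs. CATGTG and CACGTG are letters that the melanocyte factor Mitf and related E-box factors are known to bind, and TGACGTCA is the cyclic AMP response element. The windows run from 250 bases before to 50 after the annotated start and come from RefSeq, build GRCm38.p6, which held 4 of the 5 receptor genes. The Mc1r window, chr8:123406832-123407131 on the plus strand, held 2 matches to CATGTG, shown in capitals. One stands on the minus strand, as CACATG, and starts 62 bases before the start, and the other stands on the plus strand, 51 bases before it.
Mc1r promoter: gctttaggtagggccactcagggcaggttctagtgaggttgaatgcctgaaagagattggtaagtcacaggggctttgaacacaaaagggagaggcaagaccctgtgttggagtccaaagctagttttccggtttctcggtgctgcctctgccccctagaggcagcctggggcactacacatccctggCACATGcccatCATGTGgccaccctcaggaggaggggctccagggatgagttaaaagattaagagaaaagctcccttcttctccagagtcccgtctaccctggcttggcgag
Of 32851 windows of this length, 14.2% held CATGTG at least once and 2.08% at least 2 times. The Met window, chr6:17463707-17464006 on the plus strand, held CACGTG, which reads the same on both strands, 126 bases before the start, in capitals here.
Met promoter: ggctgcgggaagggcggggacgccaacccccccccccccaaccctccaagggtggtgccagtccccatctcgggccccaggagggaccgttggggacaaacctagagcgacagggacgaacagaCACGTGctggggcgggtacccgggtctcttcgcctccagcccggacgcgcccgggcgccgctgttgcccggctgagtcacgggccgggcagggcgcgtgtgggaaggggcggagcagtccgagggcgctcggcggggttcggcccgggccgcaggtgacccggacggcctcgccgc
CACGTG stood in 7.15% of the windows and TGACGTCA in 1.79%. None of the 3 motifs was found in the windows of Kit or Ednrb, and TGACGTCA was found in none of the windows of these 4 genes. A match describes the letters only, since no binding was measured here.

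Met, the receptor of hepatocyte growth factor, was not detected on day 0 and rose well above that limit. Its signal was 77.0 and 81.1 on day 0, with detection p-values of 0.114 and 0.0652, then 399 and 489 on day 4, 509 and 403 on day 8, 154 and 139.9 on day 12, 155 and 160.2 on day 16, and 132 and 114 on day 20. Days 4 and 8 formed a high group of 4 arrays, days 12, 16 and 20 a middle group of 6, and day 0 lay under both, with no overlap. The normalized day means, in time order, were 4.76 ± 0.098, 8.44 ± 0.033, 8.48 ± 0.085, 6.58 ± 0.047, 6.77 ± 0.011 and 6.48 ± 0.32.

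Since day 0 gave only an upper limit, the changes of Met from it are lower bounds. For each day 0 array the level taken was the larger of the Met probe's value and the value of the dimmest detected probe. Met was at least 11.8-fold higher on day 4 (limma adjusted p = 3.95e-15) and at least 12.1-fold higher on day 8 (adjusted p = 3.26e-15). It was at least 3.24-fold higher on day 12 (adjusted p = 1.12e-09), at least 3.69-fold on day 16 (adjusted p = 3.7e-10) and at least 3.03-fold on day 20 (adjusted p = 7.43e-10). These bounds hold under the main normalization only, and the fitted log2 change on day 8, 3.72, was 2.19 without background correction and 4.88 with the authors' value table, all called.

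Most of the fall of Met came before replating. From day 8 to day 12 it fell by 1.90 ± 0.14 on the log2 scale, 3.74-fold, with an adjusted p of 5.48e-10. Its levels on days 16, 12 and 20 were neighbours in the order and were not told apart: day 16 minus day 12 was 0.19 ± 0.14 (adjusted p = 0.354), and day 20 minus day 12 was -0.099 ± 0.14 (adjusted p = 0.587). The step from day 16 to day 20 was -0.29 ± 0.14 (adjusted p = 0.0923), but -0.51 (adjusted p = 0.00778) without set 1 of day 20. Days 8 and 4 also did not differ beyond their spread (0.042 ± 0.14, 95% interval -0.26 to 0.34). At equal time after plating, Met was lower on day 16 than on day 4 (-1.67 ± 0.14, adjusted p = 4.77e-09), as were 20.5% of tested probes, and lower on day 20 than on day 8 (-2.001 ± 0.14, adjusted p = 5.34e-11), as were 31.9%.

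Kit, the receptor of stem cell factor, was modestly higher on the pigmented days and fell in 2 steps after replating. Its detected probe, annotated to NM_021099, gave 169.6 and 167 on day 0, 235 and 307 on day 4, 261 and 237 on day 8, 259 and 220.3 on day 12, 144 and 143 on day 16, and 72.4 and 71.4 on day 20. The day 20 arrays stood at the detection limit, set 1 with a detection p-value of 0.031 and set 2, not detected, with one of 0.149. All 6 pigmented arrays were above all 6 depigmented ones. Its normalized day means, in time order, were 6.84 ± 0.075, 7.62 ± 0.074, 7.49 ± 0.041, 7.58 ± 0.0094, 6.56 ± 0.068 and 4.75 ± 0.17.

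Kit rose over day 0 by 0.78 ± 0.13 on day 4 (limma adjusted p = 2.87e-05), by 0.65 ± 0.13 on day 8 (adjusted p = 0.000218) and by 0.74 ± 0.13 on day 12 (adjusted p = 9.15e-05), between 1.57-fold and 1.72-fold. These 3 days were not told apart, with differences of -0.13 ± 0.13 (day 8 minus day 4) and 0.084 ± 0.13 (day 12 minus day 8). On day 16 it had come down from day 12 (-1.01 ± 0.13, adjusted p = 3.74e-06) and did not pass against day 0 (-0.28 ± 0.13, adjusted p = 0.103, 95% interval -0.55 to 0.0016). On day 20 it was lower than on day 16 (-1.81 ± 0.13, adjusted p = 1.07e-10) and lower than on day 0 (-2.08 ± 0.13, adjusted p = 8.71e-12). The size of that last change depends on how the signal at the limit is treated: it was -0.97 without background correction, -1.28 with an offset of 50 and -3.04 with the authors' value table, each called. The step from day 16 to day 20 likewise ran from -0.80 to -2.71.

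**Figure D3:**
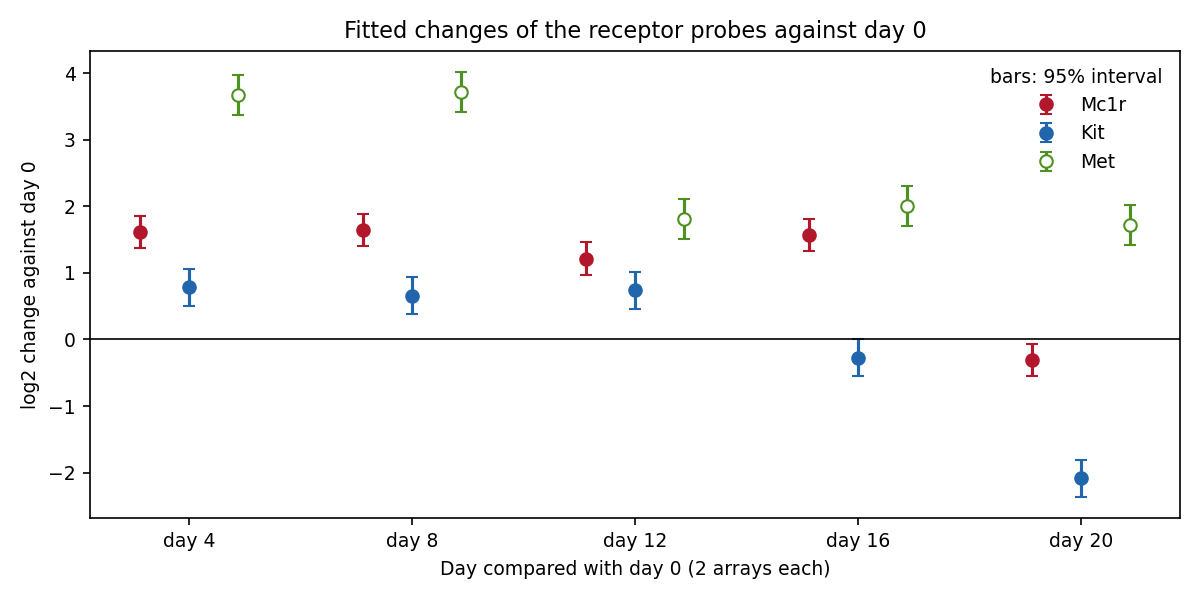
Fitted log2 change of Mc1r, Kit and Met on each day against day 0, with 95% intervals from limma (2 arrays per day). Met has the highest values on all 5 days, drawn as open points because day 0 was under its detection limit, and Kit is the receptor that is far below 0 on day 20 (-2.08).

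Set beside the background of all tested probes, the receptors moved as follows. On day 4, 3 of 3 tested receptor probes were higher, where 29.4% of tested probes were, and on day 8, 3 of 3, where 29.3% were. On day 12, 3 of 3 were higher against 23.3% of tested probes. On day 16, 2 of 3 (Mc1r and Met) were higher against 21.2%. On day 20, Met was higher and Mc1r and Kit lower, where 32.2% of probes were higher and 32.1% lower. These comparisons share the day 0 arrays, so they do not count as separate evidence.

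Each receptor moved the same way in both sets when set against day 0 of its own set. The within-set log2 changes of Mc1r lay between 1.498 and 1.79 on day 8 and between 1.45 and 1.68 on day 16. Those of Kit lay between 0.57 and 0.74 on day 8 and between -2.26 and -1.91 on day 20. Those of Met lay between 3.59 and 3.85 on day 8 and between 1.42 and 2.01 on day 20. The set numbers of days 4, 12 and 20 were exchanged between the deposited tables, and these ranges cover both numberings. Since the numbers were not taken to pair the arrays, these ranges only restate the spread of the arrays and add no separate support.

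At equal times after plating, the later days were set against the earlier ones for each receptor separately. Between the 4th and the 8th day after plating, the changes were -1.87 for Mc1r, -1.81 for Kit and -0.29 for Met after replating (day 20 minus day 16). After the first plating (day 8 minus day 4) they were 0.032, -0.13 and 0.042. The described scheme makes the replating the denser one, but the density labels of these arrays do not show this. The difference between the paired changes, a contrast added after the values were seen, was -1.90 ± 0.17 for Mc1r (limma adjusted p = 3.37e-09) and -1.68 ± 0.19 for Kit (adjusted p = 1.59e-07). For Met it was -0.33 ± 0.20 (adjusted p = 0.193), and -0.56 (adjusted p = 0.0267) without set 1 of day 20. Of all tested probes, 51.2% passed this contrast and 25.2% passed it in the lower direction. For Kit the value was -0.71 without background correction and -2.57 with the authors' value table. In the comparison of day 16 with day 4, the 95% intervals were -0.29 to 0.20 for Mc1r, -1.34 to -0.78 for Kit and -1.97 to -1.37 for Met.

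Pigmented and depigmented arrays were compared in a model with 2 groups of 6 arrays, whose spread includes that between days. Both arrays of a day share the label and their condition, but the model takes all 12 arrays as independent. Its p-values therefore overstate the evidence and serve as a description. Kit was higher in the pigmented group by 1.51 ± 0.38 (limma adjusted p = 0.021), with no overlap: the lowest, median and highest pigmented values were 7.46, 7.57 and 7.67, and the depigmented ones 4.63, 6.56 and 6.89. Met was higher by 1.83 ± 0.50 (adjusted p = 0.0303), with pigmented values of 6.55, 8.42 and 8.54 and depigmented values of 4.70, 6.48 and 6.78, which overlapped. Mc1r differed by 1.07 ± 0.34 and did not pass (adjusted p = 0.0545), with pigmented values of 8.83, 9.46 and 9.54 and depigmented values of 7.54, 7.85 and 9.42, the highest of which were the day 16 arrays. Thus 2 of 3 tested receptor probes were called, where 6.57% of all tested probes were higher. Without background correction the differences were 0.88 for Kit and 1.16 for Met, both still called. Single arrays decided these calls. Kit was not called without set 2 of day 4 (adjusted p = 0.0519), and Met was not called without any 1 of the 6 arrays of days 0, 4 and 8 (adjusted p between 0.0633 and 0.0773). Mc1r was called without set 1 of day 12 (adjusted p = 0.0452) and without either array of day 16 (adjusted p = 0.0164 and 0.0162).

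The genes whose profiles were most like those of the receptors were found by Pearson's r over the 12 arrays among 11469 other genes, each by its brightest tested probe, as a description and with no test, since the arrays of a day share their condition. For Mc1r they were Supt16 (r = 0.991), Khdrbs1 (0.986) and Myef2 (0.985), whose day means ranged over 0.67, 1.22 and 1.36 on the log2 scale. For Kit they were Chn2 (0.989), Galt (0.988) and Padi2 (0.987), with ranges of 2.11, 1.28 and 1.83. For Met they were Phgdh, an enzyme of serine synthesis (0.991), Fam120a (0.991) and Ippk (0.986), with ranges of 2.73, 1.44 and 1.24. None of the receptors was among the 3 genes most like another.

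Ligands of the receptors were mostly not detected in the cells. Probes of Pomc, the precursor of melanocortin peptides, Kitl (stem cell factor), Edn2, Edn3, Hgf and Nrg1 (a neuregulin) were detected on 0 of 12 arrays. Asip, the antagonist of Mc1r, was not analysed here. Edn1, endothelin 1, was detected on 1 array of day 0 and 1 of day 16, with signals of 63.8 to 89.6. Of 21 listed genes for ligands and their processing 7 were measured, and 1 was higher and 2 lower on day 8 than on day 0 (median 0.0093, all genes -0.036), where 29% of all genes, by 1 probe each, were higher and 33.6% lower. Spint1, an inhibitor of the proteases that activate hepatocyte growth factor, rose on day 20 (1.68 ± 0.18, adjusted p = 3.35e-08). Ece1, which makes active endothelin from its precursor, was lower on day 8 (-1.22 ± 0.16, adjusted p = 9.03e-07), and Ece2, a related enzyme, on day 12 (-1.05 ± 0.12, adjusted p = 2.05e-07). Adam10, a protease that sheds membrane ligands and receptors, was lower on day 20 (-0.99 ± 0.19, adjusted p = 0.000117).

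More of the related receptors were lower than higher on day 8, unlike Mc1r, Kit and Met. Of 21 listed related receptors 12 were measured, and 2 were higher and 9 lower on day 8, with a median of -0.88 (all genes -0.036, where 29% were higher and 33.6% lower). On day 20, 1 was higher and 8 lower (median -0.68, all genes -0.11, where 29.1% were higher and 38.4% lower). Over the 6 days 11 of the 12 were called, against 84.8% of all genes by 1 probe each. Igf1r, the receptor of insulin-like growth factor 1, was -2.56 ± 0.098 (adjusted p = 2.61e-15) and Axl, a receptor tyrosine kinase of the TAM family, -2.59 ± 0.085 (adjusted p = 2.31e-16) on day 8. Ngfr, a nerve growth factor receptor, was at least 4.24-fold lower (adjusted p = 1.57e-11) and Pdgfra, a platelet-derived growth factor receptor, at least 3.34-fold lower (adjusted p = 8.79e-11) on day 8, when neither was detected. Pdgfra is also on the fibroblast marker list. No probe of Mc2r, Mc3r, Mc4r, Mc5r or Erbb4 was detected on any array, so Mc1r was the melanocortin receptor measured here. Erbb2, the usual partner of Erbb3, was detected on 12 arrays and lower than day 0 on day 8 (-1.09, adjusted p = 2.49e-05) and day 20 (-1.61 ± 0.18, adjusted p = 9.52e-08). Mst1r, the closest relative of Met, was lower than day 0 on day 8 (-0.66, adjusted p = 0.000863) and higher on day 20 (1.15 ± 0.15, adjusted p = 1.05e-06). These last names and Cd44, a Met co-receptor that rose on day 8 (1.19, adjusted p = 4.36e-12), were chosen after their values were seen. Cd44 was 1 of the 2 related receptors higher on day 8, and it was lower on day 20 (-0.50, adjusted p = 2.54e-06).

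Signalling genes downstream of Mc1r were measured for 25 of 31 listed. On day 8, 5 were higher and 13 lower (median -0.30, all genes -0.036), and on day 20, 3 were higher and 16 lower (median -0.54, all genes -0.11). Of all genes, 29% were higher and 33.6% lower on day 8, and 29.1% higher and 38.4% lower on day 20. Crem, a cyclic AMP responsive transcription factor, rose on day 8 (1.11 ± 0.15, adjusted p = 2.02e-06) and fell on day 20 (-1.74 ± 0.15, adjusted p = 1.77e-09). In between it was below day 0 on day 12 (-0.75, adjusted p = 0.000351) and not told apart from it on day 16 (0.062, adjusted p = 0.783), when Mc1r was above day 0. Arrb2, an arrestin that desensitizes G protein-coupled receptors, was lower on day 8 (-2.12 ± 0.12, adjusted p = 1.51e-12). Sik1, a kinase that restrains CREB coactivators, was at least 4.49-fold lower on day 12 (adjusted p = 1.06e-09), and Sik2, its relative, was 1.60 ± 0.17 higher on day 20 (adjusted p = 3.74e-08). Sik1 was also below day 0 on days 4, 8, 16 and 20. Mrap, an accessory protein of melanocortin receptors, named after its value was seen, rose on day 8 (1.08, adjusted p = 1.84e-07).

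**Figure D4:**
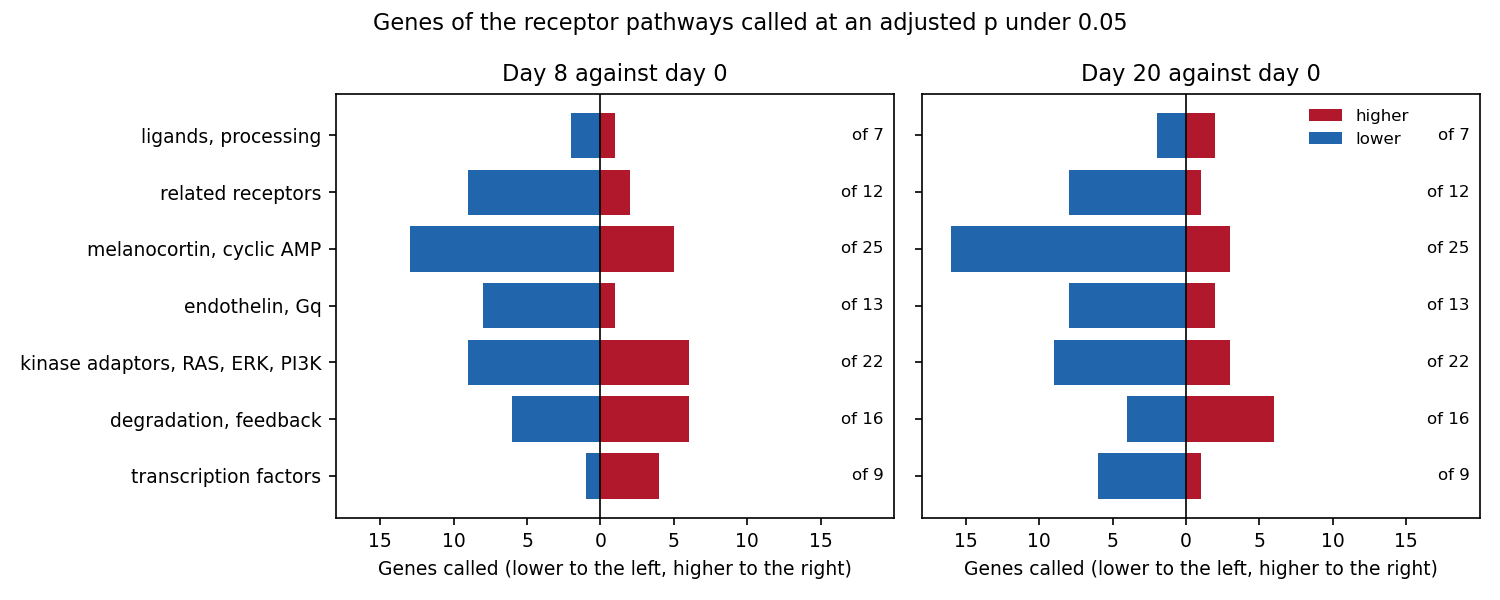
Number of genes of each receptor pathway list called lower (left) and higher (right) on day 8 and day 20 against day 0, with the number measured at the right. Related receptors had 9 lower and 2 higher on day 8, and cyclic AMP genes had 16 lower and 3 higher on day 20.

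Of 18 listed genes of endothelin and Gq signalling 13 were measured, with 1 higher and 8 lower on day 8 and 2 higher and 8 lower on day 20 (medians -0.42 and -0.59, all genes -0.036 and -0.11), against 29% higher and 33.6% lower of all genes on day 8 and 29.1% and 38.4% on day 20. Rgs16, which turns G protein signals off, had the widest range (day 8, -3.31 ± 0.11, adjusted p = 2.28e-16). Prkca, a protein kinase C, was lower on day 20 (-2.57 ± 0.12, adjusted p = 2.85e-14), Itpr3, an inositol trisphosphate receptor, at least 3.96-fold lower (adjusted p = 5.35e-10), and Plcb2, a phospholipase C, also lower (-1.23 ± 0.18, adjusted p = 4.29e-06). Itpr3 was already lower on day 8 (-1.73 ± 0.17, adjusted p = 1.43e-08), and Prkca by less (-0.41, adjusted p = 0.00416). Among 22 measured of 30 listed kinase adaptors and genes of RAS, ERK and PI3K signalling, 6 were higher and 9 lower on day 8, and 3 higher and 9 lower on day 20 (medians -0.081 and -0.17), to be read against the same shares of all genes. Pik3r1, a regulatory subunit of PI3K, was lower on day 20 (-2.88 ± 0.094, adjusted p = 1.28e-16), as were Gab1, an adaptor that binds Met (-1.72 ± 0.086, adjusted p = 1.55e-13), and Pik3r3, another such subunit (-1.03 ± 0.092, adjusted p = 1.92e-09), whereas Sos1, an activator of RAS, was higher (1.198 ± 0.21, adjusted p = 2.81e-05). On day 8, Pik3r1 (-1.67, adjusted p = 1.42e-12) and Gab1 (-1.08, adjusted p = 4.27e-10) were already lower, and Pik3r3 was higher (0.83, adjusted p = 7.56e-08).

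Among regulators that remove or silence receptors, 16 were measured of 21 listed, and 6 were higher and 6 lower on day 8, and 6 higher and 4 lower on day 20 (medians 0.30 and -0.0021, the first 0.22 with undetected genes at their bound), where 29% and 33.6% of all genes were higher and lower on day 8, and 29.1% and 38.4% on day 20. Ptpn6, a phosphatase that acts on Kit, was higher on day 8 (1.12 ± 0.13, adjusted p = 1.14e-07) and at least 4.72-fold lower on day 20 (adjusted p = 2.44e-13). Sh3kbp1, an adaptor in the uptake of receptor tyrosine kinases, was lower on day 20 (-2.45 ± 0.10, adjusted p = 8.68e-15). Lrig1, which promotes the degradation of ERBB receptors and Met, was higher on day 16 (1.55 ± 0.18, adjusted p = 3.42e-07), and Socs3, a feedback inhibitor of cytokine signalling, was lower on day 8 (-2.00 ± 0.11, adjusted p = 7.51e-13).

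Transcription factors of the melanocyte were measured for 9 of 12 listed, with 4 higher and 1 lower on day 8 and 1 higher and 6 lower on day 20 (medians 0.096 and -0.84, all genes -0.036 and -0.11). The shares of all genes were 29% higher and 33.6% lower on day 8, and 29.1% and 38.4% on day 20. Mitf, which activates many melanocyte genes, was followed by its probe detected on 12 arrays, the other being detected on 3. It was above day 0 on day 4 (1.42 ± 0.12, adjusted p = 1.29e-09), day 8 (1.54 ± 0.12, adjusted p = 3.53e-10) and day 16 (0.41 ± 0.12, adjusted p = 0.00793). It was below day 0 on day 12 (-1.30 ± 0.12, adjusted p = 1.23e-08) and day 20 (-1.92 ± 0.12, adjusted p = 6.52e-12). Met was above day 0 on days 4, 8, 12, 16 and 20, Mc1r on days 4, 8, 12 and 16, and Kit on days 4, 8 and 12. On day 20 Kit was below day 0, as was Mc1r by a call that did not hold under all alternatives. A link between Mitf and the receptors was not tested. Sox10, a factor known to act on Mitf and Erbb3, was 0.48 higher on day 8 (adjusted p = 3.56e-06) and 0.38 lower on day 20 (-0.38, adjusted p = 4.67e-05), and Pax3 was 0.75 higher on day 8 (adjusted p = 0.000247) and 0.30 on day 20, which did not pass. Sox9 was 2.84 ± 0.082 higher on day 8 (adjusted p = 2.57e-17), and Zeb2 (-2.68 ± 0.094, adjusted p = 4.5e-16) and Sox5 (-1.86 ± 0.083, adjusted p = 2.25e-14) were lower on day 20. Zeb2 was already lower on day 8 (-2.32 ± 0.094, adjusted p = 7.01e-15), where Sox5 was not told apart from day 0 (0.037, adjusted p = 0.731).

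Markers of the melanoma line, 9 of 9 listed, were measured, with a summed normalized level of 58280 to 85400 on pigmented and 15200 to 54420 on depigmented arrays. On day 8 and on day 16, 9 were higher than on day 0, as were 29% and 20.6% of all genes, and on day 20, 8 were lower and 1 higher, where 38.4% of all genes were lower and 29.1% higher. The array pairs of a day correlated at 0.994 to 0.996 across tested probes. Receptors such as Kit and Ednrb are also known from mast cells and endothelium. Of those lists, Ms4a2, Cpa3, Tpsb2 and Ptprc of mast cells and leukocytes and Cdh5, Kdr, Tek and Cldn5 of endothelium were detected on 0 arrays. Others were detected: by their most often detected probe, Cma1 and Pecam1 on 1 array each, Fcer1a on 2, Vwf on 7, Fcer1g on 9 and Lyz2 on 10. The 3 measured mast cell and leukocyte markers of 12 listed had a summed normalized level of 115.3 to 154.6 on pigmented and 65.84 to 115.2 on depigmented arrays, and 2 of them, Lyz2 and Fcer1g, changed over the 6 days. By limma, Fcer1g was higher on day 8 than on day 0 (1.42 ± 0.17, adjusted p = 2.16e-07) and Lyz2 lower (-0.50 ± 0.17, adjusted p = 0.0149). The 1 measured endothelial marker of 6 (27.1 to 38.1 pigmented, 22.2 to 35.1 depigmented) and the 2 measured keratinocyte markers of 7 (48.0 to 72.8 and 48.5 to 62.8) were not called over the 6 days. All 3 measured fibroblast markers of 7 were lower on days 8 and 20, as were 33.6% and 38.4% of all genes (summed level 67.3 to 107.4 pigmented, 95.05 to 242.2 depigmented), while Col1a2, Col3a1, Dcn and Lum were not detected. Their part in the receptor results was not tested.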

How the data were processed

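The deposited signal table gave each probe's intensity on a linear scale and its detection p-value on each array, per the file headers; software, array version and build are not given in the sources used here. The authors' value table held the intensity after a straight-line transform of each signal column, as found from the values (column means 280.64, medians 6.26 to 8.71), with the set numbers of days 4, 12 and 20 exchanged against the signal table, whose numbers were used. It served as an alternative.

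Processing used limma 3.58.1 (R 4.3.3). Its neqc function corrected background and applied quantile normalization, with an offset of 16 and the background inferred from the detection p-values, which compresses or widens changes of weak probes. Of 45281 probes, 34885 had 1 gene symbol in the platform annotation, 18 several and 10378 none. Probes detected on 2 or more arrays (18508 to 19780 were detected per array) were fitted with lmFit and eBayes with an intensity trend and day as a factor over 12 arrays, with Benjamini-Hochberg adjustment over the 22978 probes. A model of 2 groups served for the pigment label. Log2 changes and their standard errors come from these fits, all tests are two-sided, and the fits were tested on simulated data. In the simulation for the 2 groups, arrays of a day shared no change beyond that of their group. It could therefore not show how that model behaves when they do. List genes, matched by symbol alone, were represented by their brightest tested probe, with adjustment still over all probes. The number of arrays limits the precision.

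Members and lists were chosen with earlier results of these data known, and the contrast between the first plating and the replating was added after the values were seen. Named were all receptor probes, the ligands, up to 4 called genes per list with the widest range of day means (with Mitf, Sox10 and Pax3), and the 3 genes most like each receptor. Many list genes also differed from day 0 on days other than those named. Alternatives were other background corrections, scalings, offsets, filters, probe rules, sets as a replicate block, the density label and leaving out each array.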

Additional observations from a re-analysis of the deposited data

Results flagged for a closer look

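On the 6 pigmented arrays, the lowest Mc1r value, set 1 of day 12 (8.83), lay apart from the rest, with a gap to its neighbour of 0.67 of the group's whole range. How often such a gap arises by chance was not computed here, and the group holds 3 days, so its arrays do not share 1 condition. The change from the 4th to the 8th day after plating differed between the replating and the first plating for Mc1r (difference -1.904 on the log2 scale) and for Kit (-1.679), by a contrast that 51.2% of all tested probes passed. The replating was described as denser, which the density labels do not show, and it came later, so density, time in culture and replating cannot be told apart.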

How the results depend on the processing

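Changes of Mc1r, Kit and Met were refitted under 25 alternatives. Every call against day 0 held wherever the probe was still tested, except that of Mc1r on day 20. Requiring detection on all 12 arrays left 1 receptor probe, Mc1r, so that the number called was 1 over the 6 days, on each day against day 0 and between pigmented and depigmented arrays. Without a filter 41.6% of probes were called over the 6 days, against 81.3%, and leaving out 1 array gave 79.3% to 81%. Leaving out 1 array, 3 receptor probes were called over the 6 days and on days 4, 8 and 12, 2 on day 16, 2 to 3 on day 20, and 0 to 3 between pigmented and depigmented arrays, where 2 were called with all arrays. Mc1r was called there with median centring (adjusted p = 0.0431), detection on all 12 arrays (0.0488), 1 probe per gene (0.0497), the density label as a term (0.0366) or the day model (7.37e-12). The spread of the day model leaves out that between days. Differences not called changed sign for Kit, day 12 minus day 8, with median centring (-0.026), and with 1 array left out for Kit, day 12 minus day 4 (-0.096 to 0.0083), Mc1r, day 8 minus day 4 (-0.0044 to 0.068), Met, day 20 minus day 12 (-0.33 to 0.13) and Met, day 8 minus day 4 (-0.019 to 0.10). The causes were not tested, other than the fewer probes or arrays that these settings hold. Against day 0, Met on day 20 changed by 0.76 without background correction and 2.66 with the authors' value table, around 1.72. Differences between the sets correlated between days at -0.018 to 0.262, above 0.1 in 7 of 15 pairs of days, and at -0.262 to 0.114 with the value table's set numbers, so the numbers were not taken to pair the arrays. The replicate block changed no call with either numbering, with an adjusted p for Kit, day 20 minus day 0, of 3.6e-12. A slide block was not run, as the headers name no slide. Signals near background limit Kit on day 20 and Met on day 0.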
